A study of Homo sapiens with 17 samples.

Results

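The genes described here are 10 members of the neuropilin, plexin and class 3 semaphorin families: the neuropilins NRP1 and NRP2, the plexins PLXNA1, PLXNA2, PLXNA3 and PLXND1, and the class 3 semaphorins SEMA3A, SEMA3C, SEMA3D and SEMA3F. They were found by matching their symbols to the identifiers of the deposited table, which lists 60664 genes, and all 10 were present. No contrast was named for the choice of the members. They were taken as chosen by their values in AZD5153-treated against DMSO-treated cells, so that difference is described with fitted log2 fold changes, standard errors and intervals but without p-values or calls. The libraries came from cells labelled SF8628, a patient-derived diffuse midline glioma line also labelled DIPG, grown as a monolayer in serum-containing medium. AZD5153 is an inhibitor of the BET bromodomain proteins, which bind acetylated histones at active genes, and DMSO is its solvent. Cells received DMSO or 1 μM AZD5153 for 24 or 48 h, and each of the 4 groups held 3 RNA-Seq libraries of this single line, 12 in all. The labels number the replicates but do not say whether they were separate cultures, so the p-values below measure the spread between libraries, which may be technical.

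Neuropilins are transmembrane receptors with a short intracellular tail that bind secreted class 3 semaphorins and several forms of VEGF. For most class 3 semaphorins the neuropilin provides the binding site and a class A plexin or PLXND1 provides the signaling chain, whose intracellular domain acts on small GTPases. The pathway is best known for repelling growing axons and for patterning blood vessels, and in gliomas it has been studied for cell migration and vessel growth.

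Between 15759148 and 27335220 reads fell on genes in each library. Of the 10 members, 9 averaged 10 or more normalized counts across the libraries and entered the fit of 15599 genes, while SEMA3D did not. DMSO 24-hour replicate 1 stood apart from its own group. Its chi-square per degree of freedom against the other replicates of that group reached 25.6, whereas every other replicate pair in the 4 groups lay between 2.12 and 5.21. The glial lineage genes OLIG1 and OLIG2 were listed at 0 in every library, and PDGFRA and SOX10 had means of 2.66 and 1.01 normalized counts. On these 4 genes the libraries went against the glial lineage expected of the label, and the identity of the line was not tested further. SOX2, NES, VIM and CSPG4 of the same glial list of 11 were present, with means of 191, 1336, 18049 and 1581. GFAP, BCAN and PTPRZ1 of that list averaged 35.0, 66.5 and 14.2. The collagen gene COL1A1, a mesenchymal marker, averaged 35253, and COL1A2, PDGFRB and LUM of its list averaged 11741, 2377 and 1014. The other mesenchymal markers COL3A1, DCN and TAGLN were far lower, at 26.4, 10.6 and 91.3. The endothelial marker CDH5 and the microglial markers AIF1, C1QA and C1QB were listed at 0 throughout, whereas PECAM1 of the endothelial list averaged 223 and CSF1R of the microglial list 112.

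Promoter windows of the members were taken from RefSeq (GRCh38.p14), each running from 250 bases before to 50 bases after an annotated start. Which of the annotated starts these cells use was not tested. Windows were found for 8 of the 10 members, 11 windows in all. The GC box (GGGCGG on either strand, overlapping copies counted separately) occurred in 8 of the 11 windows, which belong to 7 of these 8 members, and in 45.0% of the 35116 windows of the table. CCAAT on either strand was found for SEMA3C and SEMA3F, against 34.6% of all windows. TATAAA, the AP-1 motif TGANTCA and the E-box CACGTG were found in none of the 11 windows, and in 11.5%, 7.71% and 7.26% of all windows. The following 4 windows belong to the neuropilin with an entry, to the class A plexins with the lowest and the highest AZD5153-to-DMSO ratio among the members, and to the most abundant ligand. They are printed 5′ to 3′ on the gene's strand, with GC boxes in capitals.
NRP2, chr2:205682251-205682550, plus strand: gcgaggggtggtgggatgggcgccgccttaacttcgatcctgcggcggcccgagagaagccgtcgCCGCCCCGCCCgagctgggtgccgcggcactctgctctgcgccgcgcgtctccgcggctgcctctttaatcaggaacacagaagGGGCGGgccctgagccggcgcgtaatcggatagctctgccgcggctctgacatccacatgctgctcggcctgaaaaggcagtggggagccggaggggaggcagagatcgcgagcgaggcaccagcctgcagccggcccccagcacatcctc
PLXNA2, chr1:208244335-208244634, minus strand: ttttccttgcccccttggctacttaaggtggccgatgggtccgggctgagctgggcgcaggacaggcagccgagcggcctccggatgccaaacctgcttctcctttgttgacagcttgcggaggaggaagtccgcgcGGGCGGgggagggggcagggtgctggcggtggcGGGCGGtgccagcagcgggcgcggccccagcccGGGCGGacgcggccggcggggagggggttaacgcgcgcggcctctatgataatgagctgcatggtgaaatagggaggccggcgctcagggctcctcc
PLXNA3, chrX:154458031-154458330, plus strand: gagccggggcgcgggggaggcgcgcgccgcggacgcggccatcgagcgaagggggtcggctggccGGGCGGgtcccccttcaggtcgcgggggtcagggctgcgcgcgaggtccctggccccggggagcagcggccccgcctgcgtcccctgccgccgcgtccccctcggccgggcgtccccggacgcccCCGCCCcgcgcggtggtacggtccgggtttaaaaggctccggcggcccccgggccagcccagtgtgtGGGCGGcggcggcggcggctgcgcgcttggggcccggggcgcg
SEMA3C, chr7:80919002-80919301, minus strand: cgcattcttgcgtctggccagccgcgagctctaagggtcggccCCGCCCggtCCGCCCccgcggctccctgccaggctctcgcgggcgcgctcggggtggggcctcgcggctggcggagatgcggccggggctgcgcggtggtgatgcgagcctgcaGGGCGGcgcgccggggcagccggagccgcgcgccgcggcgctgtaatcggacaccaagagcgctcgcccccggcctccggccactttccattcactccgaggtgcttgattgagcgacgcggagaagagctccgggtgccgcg

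All 4 printed windows were rich in G and C, with 70.0% for NRP2, 70.3% for PLXNA2, 83.3% for PLXNA3 and 75.7% for SEMA3C, against a median of 58.7% over all windows. Each held 3 GC boxes, while the windows of the plexins not printed held 5 for PLXNA1 and 9 for PLXND1. The CG dinucleotide occurred 29 times in the PLXNA2 window and 51 times in the PLXNA3 window, against a median of 14.0. A further SEMA3C start, chr7:80922340-80922639, had 36.0% G and C and no GC box.

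The question of the treatment comparison was how BET bromodomain inhibition changes expression in these cells. In AZD5153-treated cells NRP1 was 8.00-fold lower at 24 h and 8.87-fold lower at 48 h, and NRP2 was 7.24-fold and 7.07-fold lower. PLXNA3 was 4.36-fold and 3.85-fold higher. Of the 9 members in the fit, 7 had a log2 fold change below 0 and 2 above 0 at 24 h, and at 48 h 8 had one below 0 and 1 above 0. Over all genes tested 50.0% had one below 0 at each time, a share that depends on how the libraries were scaled. By the adjusted p of limma, 34.6% of all genes were lower and 33.9% higher at 24 h, and 33.9% were lower and 33.1% higher at 48 h. Libraries of the 2 treatments did not overlap for 9 of 9 members at 24 h and for 8 of 9 at 48 h, against 68.8% and 74.7% of all genes. Since this comparison was taken as the one that chose the members, nothing is read from these counts. The values are those of RNA from whole cultures, in which fewer cells of a type and less RNA per cell cannot be told apart.

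**Figure D1:**
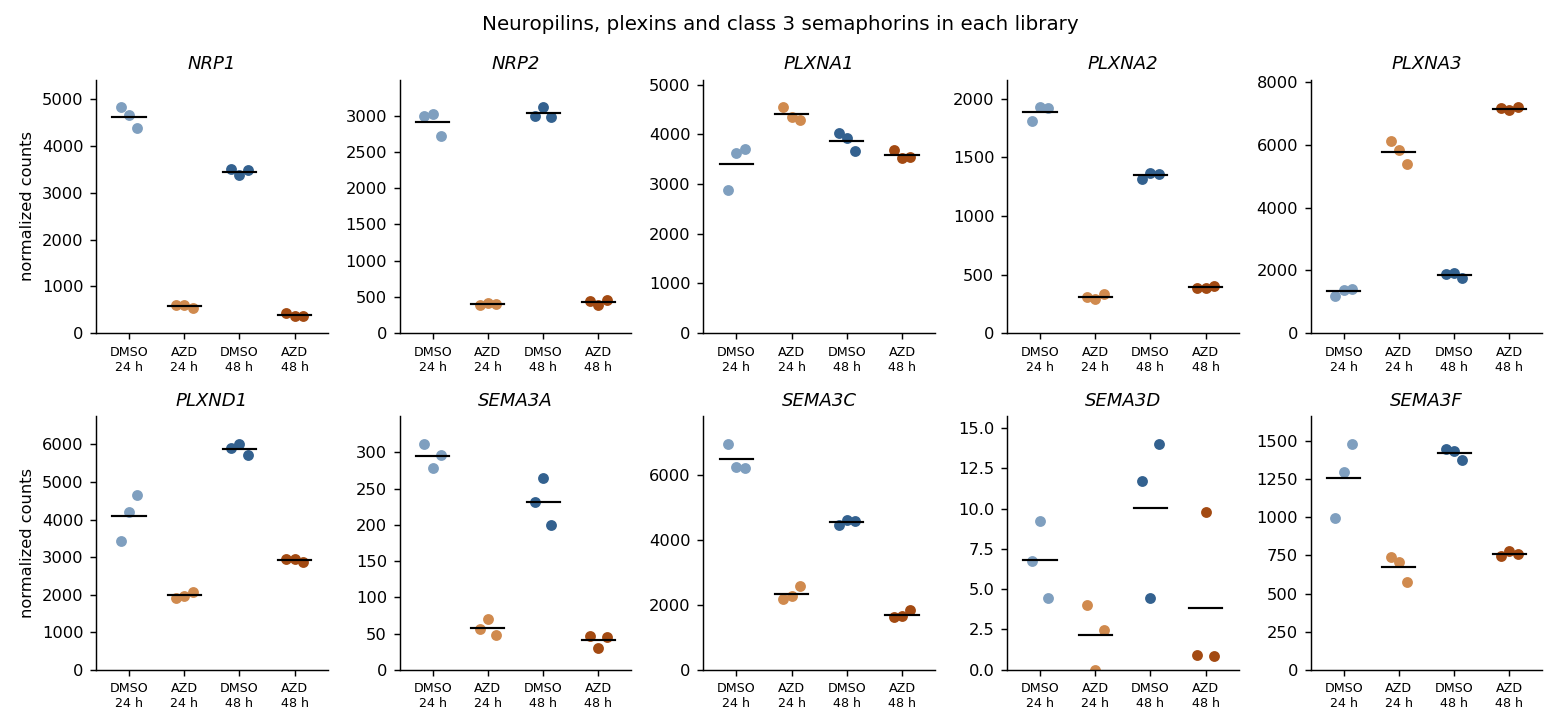
Normalized counts (vertical axis, linear from 0, each gene on its own scale) of the 10 members in the 4 groups, where each point is a library and each bar the mean of 3. The AZD5153 (AZD) libraries lie far below the DMSO libraries for NRP1, NRP2 and PLXNA2 and far above them for PLXNA3, while SEMA3D reaches at most 14.0 normalized counts in any library.

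NRP1 (ENSG00000099250), at chr10:33177492-33336262 on the minus strand of GRCh38, encodes a receptor for SEMA3A and for VEGF. In DMSO it measured 4838, 4659 and 4396 normalized counts at 24 h and 3499, 3373 and 3482 at 48 h. In AZD5153-treated cells it measured 601, 595 and 539.8 at 24 h and 429.5, 375 and 363 at 48 h. Every treated library lay below every DMSO library, and within each treatment every 48-hour library lay below every 24-hour library. The log2 fold change, on the scale of log2(normalized count + 1), was -3.00 at 24 h (SE 0.07, 95% interval -3.15 to -2.85) and -3.15 at 48 h (SE 0.07, -3.30 to -3.00). Among the 15599 genes, 261 had a lower log2 fold change than NRP1 at 24 h and 348 at 48 h.

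NRP2 (ENSG00000118257), at chr2:205681990-205798133 on the plus strand, encodes the related receptor that binds SEMA3C and SEMA3F. It measured 2996, 3024 and 2713 normalized counts in DMSO at 24 h, and 2991, 3119.7 and 2976 at 48 h. AZD5153-treated cells had 393, 416 and 394 at 24 h and 445, 381 and 460.3 at 48 h. Unlike NRP1, its libraries of 24 and 48 h overlapped within DMSO and within AZD5153. The log2 fold change was -2.86 at 24 h (SE 0.07, 95% interval -3.01 to -2.70) and -2.82 at 48 h (SE 0.07, -2.98 to -2.66).

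The balance of the 2 receptors differed between the groups. NRP1 had 1.59 ± 0.04 times the normalized counts of NRP2 in DMSO at 24 h and 1.14 ± 0.05 times at 48 h (SD, n = 3). In AZD5153-treated cells the ratio was 1.44 ± 0.08 at 24 h and 0.912 ± 0.108 at 48 h. Both receptors together, summed per kilobase of exon, measured 611 ± 30.7 and 518 ± 1.33 in DMSO at 24 and 48 h, and 79.1 ± 3.38 and 64.6 ± 4.66 in AZD5153.

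The plexins differed among themselves. PLXNA2 (ENSG00000076356, chr1:208022242-208244384, minus strand), a class A plexin, had 1815, 1932.5 and 1923 normalized counts in DMSO at 24 h and 1314, 1368 and 1358 at 48 h. In AZD5153 it had 309.7, 294 and 332 at 24 h and 387, 388 and 399 at 48 h. The treated libraries lay below all DMSO libraries, and the gap narrowed from both sides, since the DMSO libraries were lower and the treated libraries higher at 48 h. The log2 fold change was -2.60 at 24 h (SE 0.07) and -1.78 at 48 h (SE 0.07). The difference of these effects was 0.82 (SE 0.09), the largest in size among the 9 members, and was not tested.

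PLXNA3 (ENSG00000130827, chrX:154458281-154477779, plus strand), another class A plexin and a signaling partner of NRP2, went the other way. Its DMSO libraries had 1182, 1377 and 1417.5 normalized counts at 24 h and 1896, 1914 and 1769 at 48 h. The treated libraries had 6111, 5823 and 5378 at 24 h and 7157, 7096 and 7208 at 48 h. Its log2 fold change was 2.12 at 24 h (SE 0.07, 95% interval 1.98 to 2.27) and 1.94 at 48 h (SE 0.07, 1.80 to 2.09), and 322 and 287 of the genes tested had a higher one. PLXNA3 shares 5 exon bases with LAGE3, a gene of the opposite strand that averaged 716 normalized counts, and the strand setting of the counting was not given in the sources used here. The ratio of PLXNA3 to PLXNA2 normalized counts was 0.700 ± 0.044 in DMSO and 18.6 ± 2.06 in AZD5153 at 24 h, and 1.38 ± 0.072 and 18.3 ± 0.217 at 48 h (SD, n = 3).

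PLXNA1 (ENSG00000114554, chr3:126982693-127037389, plus strand), a class A plexin that pairs with NRP1, differed least between treatments. At 24 h it had 2876.5, 3622 and 3712 normalized counts in DMSO and 4556, 4356 and 4297 in AZD5153, and the groups did not overlap. At 48 h it had 4032, 3926 and 3669 in DMSO and 3680.2, 3518 and 3556 in AZD5153, and the groups overlapped. The log2 fold change was 0.38 at 24 h (SE 0.08, 95% interval 0.22 to 0.54) and -0.11 at 48 h (SE 0.08, -0.27 to 0.05). The lowest DMSO value belonged to the 24-hour replicate 1 that stood apart, and without it the 24-hour log2 fold change was 0.26.

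PLXND1 (ENSG00000004399, chr3:129555214-129606676, minus strand), which is known from endothelium and can bind SEMA3E without a neuropilin, had 3438, 4192 and 4653 normalized counts in DMSO at 24 h and 5893, 6022 and 5713 at 48 h. It had 1915, 1972 and 2073 in AZD5153 at 24 h and 2945, 2937 and 2878 at 48 h. Both treatments were higher at 48 h than at 24 h, and the treated libraries lay below the DMSO libraries at each time. Against DMSO the log2 fold change was -1.03 at 24 h (SE 0.08) and -1.01 at 48 h (SE 0.08).

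Per kilobase of exon, the 4 plexins among the members were together at 981 ± 119 normalized counts in DMSO and 1115 ± 33.8 in AZD5153 at 24 h. At 48 h they were at 1216 ± 37.0 and 1264 ± 10.3 (SD, n = 3). Their makeup differed much more than their sum. PLXND1 held 43.6% ± 1.45 of the summed level in DMSO and 18.7% ± 1.31 in AZD5153 at 24 h, whereas PLXNA3 held 11.6% ± 0.337 and 44.2% ± 1.55. At 48 h PLXND1 held 50.6% ± 0.475 and 24.2% ± 0.316, and PLXNA3 13.1% ± 0.162 and 48.3% ± 0.417.

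**Figure D2:**
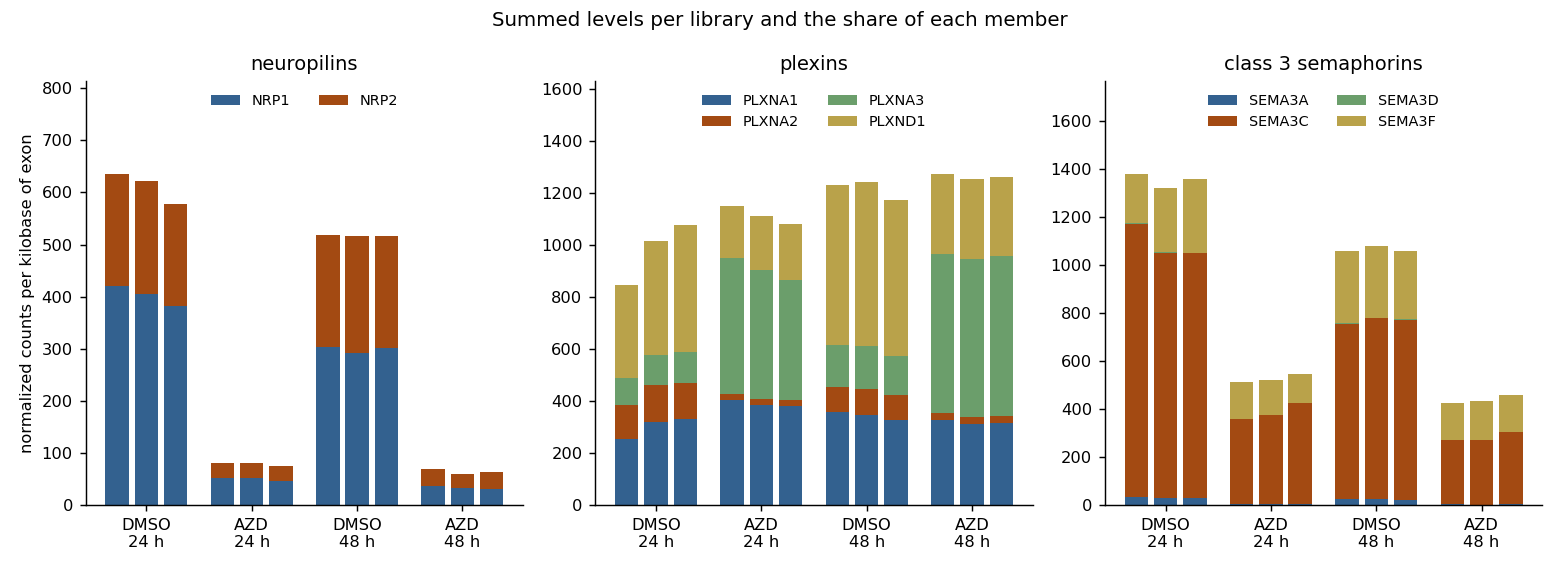
Normalized counts per kilobase of exon (vertical axis, linear) summed over each family, with 1 stacked bar per library in the 4 groups and the members in colors. The neuropilin sum is 611 in DMSO and 79.1 in AZD5153 at 24 h, while the plexin sum stays between 848 and 1275 in all 12 libraries and PLXNA3 takes the largest share in treated cells.

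Among the ligands, SEMA3C (ENSG00000075223, chr7:80742538-80922359, minus strand) was by far the most abundant. It had 6958, 6239.5 and 6215 normalized counts in DMSO at 24 h and 4465, 4592 and 4586 at 48 h. Treated cells had 2165, 2256 and 2573 at 24 h and 1623, 1644 and 1824 at 48 h, all below the DMSO libraries. Its log2 fold change was -1.47 at 24 h (SE 0.07, 95% interval -1.62 to -1.33) and -1.42 at 48 h (SE 0.07, -1.57 to -1.28).

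SEMA3A (ENSG00000075213, chr7:83955777-84492724, minus strand), the classical axon repellent that signals through NRP1, was expressed at a lower level. It had 312, 279 and 296 normalized counts in DMSO at 24 h and 231.5, 264 and 199.8 at 48 h. Treated cells had 56.3, 70.6 and 47.7 at 24 h and 46.5, 29.3 and 45.3 at 48 h. No treated library reached a DMSO library, and the log2 fold change was -2.34 at 24 h (SE 0.19, 95% interval -2.75 to -1.93) and -2.51 at 48 h (SE 0.19, -2.92 to -2.10).

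SEMA3F (ENSG00000001617, chr3:50155045-50189075, plus strand), a ligand of NRP2, had 994, 1299.7 and 1484 normalized counts in DMSO at 24 h and 1448, 1437 and 1374.5 at 48 h. Treated cells had 741.5, 708.5 and 578 at 24 h and 744, 778 and 761.5 at 48 h. All treated libraries lay below all DMSO libraries, with a log2 fold change of -0.89 at 24 h (SE 0.12) and -0.90 at 48 h (SE 0.12). The antisense gene SEMA3F-AS1 shares 110 exon bases with it and had a mean of 15.9 normalized counts.

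SEMA3D (ENSG00000153993, chr7:84995553-85187056, minus strand), a secreted ligand of the same class, was near the detection limit. Its reads numbered 6, 13 and 5 in DMSO and 3, 0 and 2 in AZD5153 at 24 h, and 13, 5 and 13 in DMSO and 1, 9 and 1 in AZD5153 at 48 h. The library with 0 reads allows up to 3 reads, or 3.07 normalized counts, for counting error only. Over the libraries of each group its reads summed to 24 in DMSO and 5 in AZD5153 at 24 h, and to 31 and 11 at 48 h. At 24 h the normalized counts did not overlap, with a lowest DMSO value of 4.46 and a highest AZD5153 value of 4.02. Those 2 nearest libraries had 5 and 3 reads, which is within counting error for that pair alone. At 48 h the treatments overlapped. The treatment difference of SEMA3D was not tested here, and no fold change is given on so few reads.

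The 4 class 3 semaphorins among the members summed to 1355 ± 29.1 normalized counts per kilobase of exon in DMSO and 529 ± 16.4 in AZD5153 at 24 h. At 48 h they summed to 1066 ± 11.9 and 441 ± 18.9 (SD, n = 3). SEMA3C held 78.3% ± 3.90 of the sum in DMSO and 72.2% ± 4.35 in AZD5153 at 24 h, and 69.9% ± 0.908 and 63.1% ± 1.48 at 48 h. SEMA3F held 19.3% ± 3.97 and 26.6% ± 4.16 at 24 h, and 27.6% ± 0.740 and 35.8% ± 1.49 at 48 h.

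**Figure D3:**
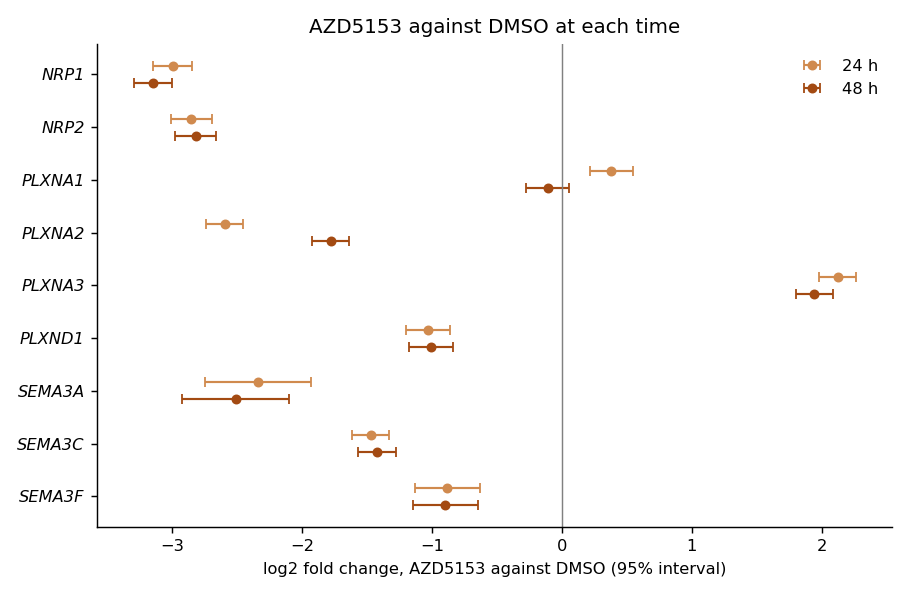
Log2 fold changes of AZD5153 against DMSO (horizontal axis) for the 9 members in the fit, with points for 24 and 48 h and bars for 95% intervals of the limma fit. NRP1 and NRP2 lie at -3.15 to -2.82, PLXNA3 at 1.94 and 2.12, and PLXNA1 on either side of 0.

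The comparison of 48 with 24 h within 1 treatment was assumed to have had no part in the choice of the members and was tested. It shares its groups with the treatment comparisons, so a choice by those could also shift these differences. The p-values for members hold only if the choice did not reach them. In DMSO, 2 of the 9 members rose and 3 fell by the adjusted p of limma, against 16.4% higher and 19.3% lower over all genes tested. In AZD5153-treated cells 3 rose and 3 fell, against 15.8% and 13.8%. NRP1 fell by 0.42 on the log2 scale in DMSO (SE 0.07, adjusted p = 0.000256) and fell by 0.57 in AZD5153 (SE 0.07, adjusted p = 2.01e-05). NRP2 had a log2 fold change of 0.06 in DMSO (95% interval -0.10 to 0.22, adjusted p = 0.571) and of 0.09 in AZD5153 (-0.06 to 0.25, adjusted p = 0.376). SEMA3C fell by 0.51 in DMSO (SE 0.07, adjusted p = 4.18e-05) and fell by 0.46 in AZD5153 (SE 0.07, adjusted p = 0.000123).

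PLXND1 and PLXNA3 rose with time in both treatments. PLXND1 had a log2 fold change of 0.53 in DMSO (SE 0.08, adjusted p = 0.000105) and of 0.56 in AZD5153 (SE 0.08, adjusted p = 8.46e-05). PLXNA3 had 0.49 in DMSO (SE 0.07, adjusted p = 4.65e-05) and 0.31 in AZD5153 (SE 0.07, adjusted p = 0.00234). PLXNA2 fell by 0.49 in DMSO (SE 0.07, adjusted p = 4.52e-05) and rose by 0.33 in AZD5153 (SE 0.07, adjusted p = 0.00152). The gap between these values is the difference of its treatment effects, which was not tested because of the choice of the members.

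PLXNA1 fell with time in AZD5153, with a log2 fold change of -0.30 (SE 0.08, adjusted p = 0.00827), and missed the threshold in DMSO with 0.20 (95% interval 0.03 to 0.36, adjusted p = 0.0581). The DMSO value passed when replicate 2 or replicate 3 of DMSO at 24 h was left out and was 0.08 without replicate 1 of that group. SEMA3A did not pass in DMSO (log2 fold change -0.36, 95% interval -0.77 to 0.05, adjusted p = 0.166) or in AZD5153 (-0.53, -0.94 to -0.12, adjusted p = 0.0514). Its AZD5153 value passed, at -0.66 to -0.53, when 1 of 4 single libraries was left out. These were AZD5153 replicate 3 at 24 h, AZD5153 replicate 1 or 3 at 48 h, and DMSO replicate 1 at 24 h. Leaving out AZD5153 replicate 2 at 48 h, the lowest library of that group at 29.3 normalized counts, made the SEMA3A fall smaller. SEMA3F likewise gave 0.19 in DMSO (-0.06 to 0.44, adjusted p = 0.222) and 0.18 in AZD5153 (-0.07 to 0.43, adjusted p = 0.277), and without replicate 3 of DMSO at 24 h its DMSO value passed at 0.32, whereas it was 0.03 without replicate 1 of that group. With replicate 3 of DMSO at 24 h left out, 4 of the 9 members rose with time in DMSO, against 18.1% of all genes tested in that fit. Leaving out replicate 3 of AZD5153 at 24 h, the lowest of its group at 578 normalized counts, made the SEMA3F value in AZD5153 smaller.

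**Figure D4:**
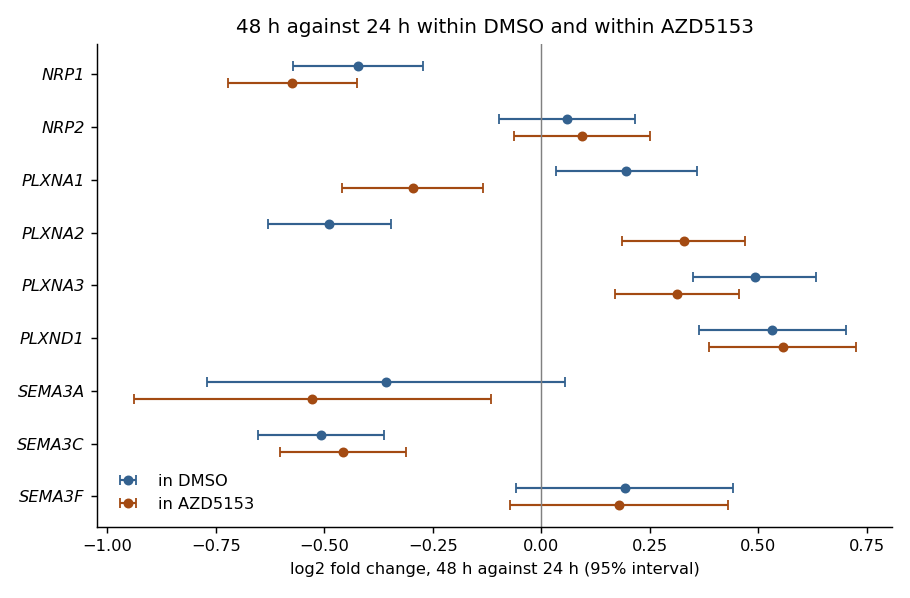
Log2 fold changes of 48 against 24 h (horizontal axis) for the 9 members, with points for DMSO and AZD5153 and bars for 95% intervals of the limma fit. NRP1 and SEMA3C lie below 0 and PLXNA3 and PLXND1 above 0 in both treatments, whereas PLXNA2 lies at -0.49 in DMSO and at 0.33 in AZD5153.

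Levels were compared between genes as normalized counts per kilobase of joined exons. In DMSO at 24 h the order was SEMA3C at 1061 ± 69.2, PLXND1 at 428 ± 64.2, NRP1 at 402 ± 19.3, PLXNA1 at 303 ± 40.8 and SEMA3F at 261 ± 51.3 (SD, n = 3). NRP2 at 209 ± 12.4, PLXNA2 at 137 ± 4.73, PLXNA3 at 113 ± 10.7, SEMA3A at 31.9 ± 1.79 and SEMA3D at 0.826 ± 0.290 followed. The ranges of PLXND1 and NRP1, of PLXNA1 and SEMA3F, and of SEMA3F and NRP2 overlapped across libraries. Both genes of a pair come from the same libraries, and their order within each library was not compared.

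In AZD5153 at 24 h PLXNA3 led with 493 ± 31.5, followed by PLXNA1 at 392 ± 12.1 and SEMA3C at 382 ± 35.1, whose libraries overlapped. NRP1 stood at 50.2 ± 2.92 and NRP2 at 28.8 ± 0.924, below all members but PLXNA2, SEMA3A and SEMA3D. At 48 h SEMA3C led in DMSO with 746 ± 11.7, and PLXNA3 led in AZD5153 with 611 ± 4.78. NRP1, NRP2 and PLXNA2 followed each other in AZD5153 at 48 h with 33.8 ± 3.08, 30.9 ± 3.01 and 28.2 ± 0.481, and the libraries of each neighboring pair overlapped. With the length of the longest transcript, NRP1 stood above PLXND1 in DMSO at 24 h, at 787 per kilobase. SEMA3C and PLXNA3 kept the first places in the DMSO and AZD5153 groups, although in AZD5153 at 24 h the PLXNA3 and SEMA3C libraries overlapped.

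Over the 12 libraries, the genes with the highest Pearson correlation with NRP1 on the log2 scale were ANP32B, OAS3 and NID1, at 0.998, 0.998 and 0.997. For NRP2, LOXL3 and RXFP2 were among the 3 highest, at 0.998 and 0.997. All points share the same libraries and treatment groups, and 920 and 1021 of the 10960 genes compared had a correlation above 0.95 with NRP1 and NRP2, so these names describe likeness in these libraries alone.

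The rest of the pathway was described from lists that did not contain the members. Of 72 genes on lists of other semaphorins, plexins, VEGF genes, co-receptors, effectors and processing enzymes, 63 entered the fit. At 24 h 28 rose and 25 fell, and at 48 h 25 rose and 25 fell, with a median log2 fold change of -0.09 and -0.02, against 0.00 at both times over all genes tested. Over all genes tested 33.9% rose and 34.6% fell at 24 h, and 33.1% rose and 33.9% fell at 48 h, and the counts of each list below stand beside these shares. Of the other plexins 4 of 5 fell and 1 rose at both times. PLXNA4, the class A plexin that is not among the members, had a range of 1629.99 to 1804 normalized counts in DMSO and 97.9 to 102 in AZD5153 at 24 h. Its log2 fold change was -4.06 at 24 h (SE 0.09, adjusted p = 5.38e-15) and -3.33 at 48 h (SE 0.09, adjusted p = 5e-14). PLXNB2, a receptor of class 4 semaphorins, rose by 0.73 (SE 0.08, adjusted p = 1.18e-06) and 0.52 (SE 0.08, adjusted p = 4.74e-05), while PLXNB1, PLXNB3 and PLXNC1 fell, at -0.62 to -1.02.

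Over all genes tested the AZD5153 effect differed between 24 and 48 h for 24.5%. Of the 63 genes of these lists 8 had a higher and 8 a lower effect at 48 h by that test, a share close to that of all genes. Among the genes of these lists named here PLXNA4, SEMA3E, VEGFA and VEGFB passed that test.

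Of the other class 3 semaphorins, SEMA3B and SEMA3E fell at both times. SEMA3B had log2 fold changes of -1.47 and -1.71, and SEMA3E, the ligand that binds PLXND1, had -0.90 and -1.69. SEMA3G rose at 24 h at a low level (1.67, SE 0.48, adjusted p = 0.0055) and had 0.46 at 48 h (SE 0.48, adjusted p = 0.411). Of 12 transmembrane and other semaphorins of classes 4 to 7 in the fit, 5 rose and 4 fell at 24 h, and 4 rose and 5 fell at 48 h. SEMA6A, a membrane-bound ligand of class A plexins, rose by 2.67 and 3.45 (SE 0.32), and SEMA6B, from the same class, fell, with log2 fold changes of -3.85 and -4.76 (SE 0.33). SEMA6B was at 38.3 to 149.8 normalized counts in DMSO libraries and at 2.05 to 5.43 in AZD5153 libraries, so its fold change rests on few reads.

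Of the VEGF ligands and receptors 5 of 8 entered the fit, and VEGFA, VEGFB and VEGFC fell at both times. VEGFA, which binds both neuropilins, had a log2 fold change of -2.50 at 24 h (SE 0.21) and -3.43 at 48 h (SE 0.21). KDR, the main signaling receptor of VEGFA, rose by 1.10 at 24 h (SE 0.45, adjusted p = 0.0412) and had 0.69 at 48 h (adjusted p = 0.191), on 22 to 44 reads in each group of 3 libraries. Of 4 co-receptors in the fit none passed limma at 24 h, nor did any at an unadjusted p under 0.05 or by edgeR or DESeq2, and L1CAM, an adhesion molecule that binds NRP1, fell by 1.44 at 48 h (SE 0.43, adjusted p = 0.0079), on 91 reads in DMSO and 31 in AZD5153. KDR, L1CAM, VEGFB and VEGFC were singled out after their values were seen.

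Of 28 intracellular effectors of plexins in the fit, 17 rose and 9 fell at each time. RND1, which binds the intracellular part of plexins, rose by 1.94 and 2.33 (SE 0.54) on 18 and 16 reads over the DMSO libraries and 59 and 95 over the AZD5153 libraries, and FES, a tyrosine kinase acting downstream of plexins, fell, with -1.99 and -1.90 (SE 0.32). Of the proprotein convertases and sheddases 3 of 6 rose at both times, and 3 fell at 24 h and 1 at 48 h. PCSK5, a convertase, rose by 2.92 and 2.63 (SE 0.43) from 29 and 26 reads in DMSO, and ADAM17, a sheddase of membrane proteins, fell, with -0.29 and -0.38 (SE 0.09).

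For comparison, of 28 genes of the ephrin, netrin and Slit families in the fit, 10 rose and 13 fell at 24 h, and 8 rose and 9 fell at 48 h. Their median log2 fold changes were -0.32 and -0.09. EFNB2 rose by 2.75 and 2.80 (SE 0.10) and EFNB3 fell, with -2.52 and -3.34 (SE 0.37), to 17 and 24 reads in AZD5153. SLIT2, a secreted axon repellent, rose by 3.25 and 2.72 (SE 0.16), and NTN4, a laminin-related netrin, fell, with -2.76 and -2.59 (SE 0.07).

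**Figure D5:**
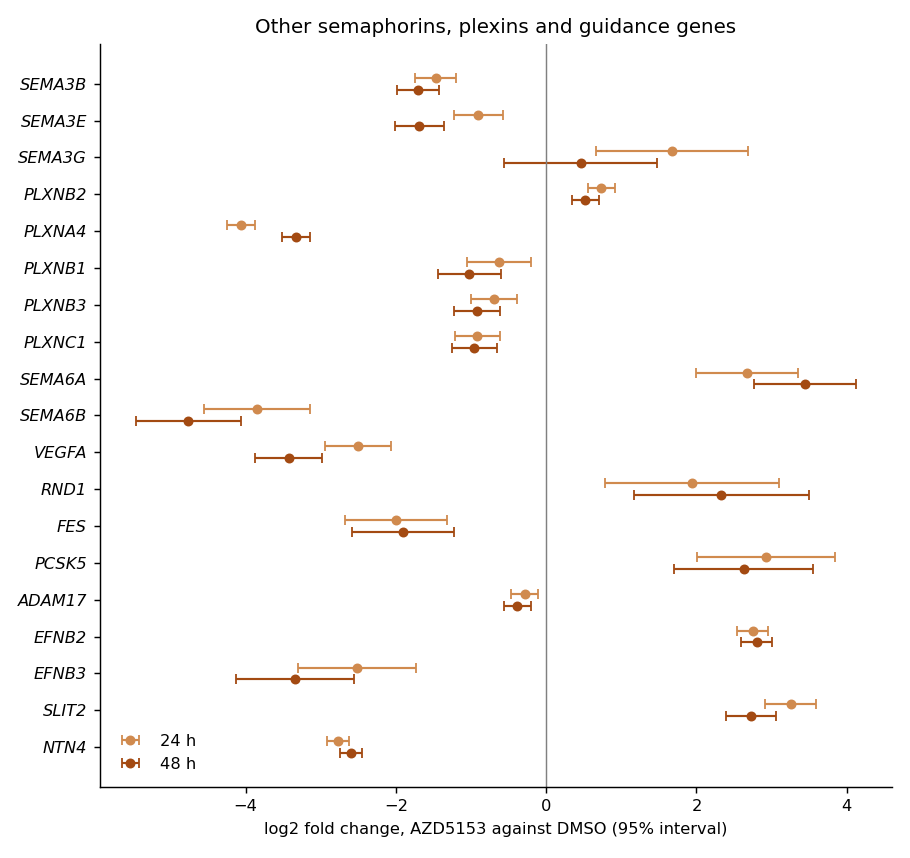
Log2 fold changes of AZD5153 against DMSO (horizontal axis) for the named genes of the other semaphorin, plexin and guidance lists, with points for 24 and 48 h and bars for 95% intervals of the limma fit. PLXNA4 lies at -4.06 and -3.33, SEMA6A and SEMA6B lie on opposite sides of 0, and PLXNB2 is the plexin above 0.

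The summed cell type marker lists, except the neuronal list, were lower in AZD5153 than in DMSO at both times. The summed level of 7 fibroblast and mesenchymal markers, all of which had a mean of at least 10, ranged from 61239 to 76453 normalized counts in DMSO against 19385 to 20153 in AZD5153 at 24 h, and from 82163 to 88371 and 25539 to 25695 at 48 h. COL1A1, a fibrillar collagen, gave most of it with a mean of 35253 over the 12 libraries, followed by COL1A2 with 11741. TAGLN of the same list rose at 24 h, by 1.16 (SE 0.23, adjusted p = 0.000316), and had 0.38 at 48 h (adjusted p = 0.155). The 8 endothelial markers, of which 5 had a mean of at least 10 and CDH5 was listed at 0, summed to 432 to 446 in DMSO and 174 to 195 in AZD5153 at 24 h, and to 739.5 to 782 and 141 to 177 at 48 h. PECAM1 had the highest mean of them over the 12 libraries and fell, with log2 fold changes of -2.71 and -4.07. ESAM rose 2.82-fold at 24 h (adjusted p = 1.4e-05) and 1.63-fold at 48 h (adjusted p = 0.00905). In AZD5153 ESAM was above PECAM1, with means of 106 against 43.3 at 24 h and 99.3 against 30.5 at 48 h. The 7 microglial and macrophage markers, of which 1 had such a mean, summed to 180.3 to 212 and 25.6 to 34.9 at 24 h, and to 177 to 216 and 29.9 to 48.9 at 48 h, most of it from CSF1R. The 6 neuronal markers summed to 716 to 859 in DMSO and 821 to 914 in AZD5153 at 24 h, and to 731 to 895 and 874 to 998 at 48 h, and overlapped at both times. SYT1 gave most of that sum, with a mean of 775, while SYP rose, by 1.82 and 2.04 (SE 0.30), and SNAP25 fell, with -1.45 and -1.36 (SE 0.30). The glioma and oligodendrocyte precursor list, of which 7 of 11 had such a mean, summed to 24151 to 32312 and 19393 to 21181 at 24 h, and to 20219 to 21022 and 16234 to 17794 at 48 h. VIM gave most of that sum, and the list did not move in 1 direction: CSPG4 (-2.23 and -1.76) and NES (-1.43 and -1.87) fell at both times, whereas BCAN (3.21 and 1.96) and PTPRZ1 (1.44 and 2.93) rose at both. The part of these genes in the values of the members was not tested.

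The scaling of the libraries set the level against which all differences were read. With libraries scaled to equal totals, the median log2 fold change over all genes tested moved to -0.12 at 24 h and -0.17 at 48 h. Of the calls, 37.4% were then higher at 48 h instead of 49.4%, and for 48 against 24 h in DMSO 56.2% were higher instead of 45.8%. The 36 log2 fold changes of the 9 members between treatments and between times kept their sign under every alternative run. PLXNA1, the member closest to 0, had 0.26 at 24 h and -0.28 at 48 h with equal totals.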

How the data were processed

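RNA-Seq was measured in 12 SF8628 libraries (DMSO or 1 μM AZD5153, 24 or 48 hours, n = 3), and the other samples of the series, from CUT&RUN, were not analysed here. Per the labels and the study's methods, the authors used STAR for alignment (paired ends, hg38), HTSeq for gene counting and DESeq2 for testing; versions and the strand setting were not given in the sources used here. The values the authors deposited are a signal, gene counts divided by 1 size factor per library. In every library 100% of values were whole multiples of 1 step (tolerance 0.01), which gave back whole reads. The authors' own log2 fold changes, standard errors, p-values and adjusted p-values stand in the same table and were not used.

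Identifiers were matched to GENCODE 44 (60463 of 60664 found). The scale was log2(normalized count + 1), for 15599 genes with a mean of at least 10, and 1 fit of 4 groups was made with limma 3.58.1 in R 4.3.3 (lmFit, eBayes with a trend, 95% intervals), with Benjamini-Hochberg adjustment over all genes and a threshold of 0.05. The edgeR 4.0.16 quasi-likelihood test and DESeq2 1.42.0 on the recovered reads, other pseudocounts (0.5 and 10), other minimums (none and 100), equal totals, quantile normalization, eBayes without a trend, fits of the 2 groups compared, a replicate block and leaving out each library were alternatives. The fit was also run on simulated data, and no result given here rests on that run. Exon lengths are those of joined GENCODE exons. The members and lists were chosen with earlier results of these data known. The genes named are the members, all other class 3 semaphorins and plexins, from each other list the largest rise and the largest fall among genes past the threshold in the same direction at both times, and the 3 genes most correlated with NRP1 and NRP2 among those with a mean of at least 100, of which 1 is not reported here. KDR, L1CAM, VEGFB, VEGFC and single marker genes were named outside this rule, after their values were seen. Marker lists were the glioma, endothelial, microglial, neuronal and mesenchymal lists given with the results.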

Additional observations from a re-analysis of the deposited data

Results flagged for a closer look

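Among the named genes of the other pathway lists, the AZD5153 effect differed between 24 and 48 hours for 4 genes by the adjusted p of limma for the difference itself. Of the 63 genes of these lists in the fit 8 passed with a higher and 8 with a lower log2 fold change at 48 hours. That share is close to the 24.5% of all genes tested, so passing this test does not set these lists or the 4 genes apart. PLXNA4 had a difference of 0.73 on the log2 scale (48 hours minus 24 hours, SE 0.12, adjusted p = 0.000559), since its log2 fold change was -4.06 at 24 hours and -3.33 at 48 hours. VEGFA had a difference of -0.93 (SE 0.29, adjusted p = 0.0312), from -2.50 to -3.43. SEMA3E had a difference of -0.78 (SE 0.22, adjusted p = 0.0154), from -0.90 to -1.69. VEGFB, named after its values were seen, had a difference of -1.21 (SE 0.15, adjusted p = 3.98e-05), from -0.70 to -1.91. The difference of the effects of the members themselves was not tested, because the treatment comparisons were taken as those that chose them.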

How the results depend on the processing

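The counts past the threshold, of members at 48 against 24 hours and of other pathway genes, stayed within 1.5 times the reported count under the alternatives run, except that leaving out replicate 3 of DMSO at 24 hours raised the members higher at 48 than at 24 hours in DMSO from 2 to 4, by PLXNA1 and SEMA3F, while the share over all genes tested went from 16.4% to 18.1%. Over the fits that leave out 1 library this count ranged from 2 to 4. The replicate numbers did not pair the libraries: 18 same-number correlations of deviations lay between -0.151 and 0.0363, 0 were above 0.1, and in 6 of 18 comparisons of a library with the libraries of another group the correlation was highest with its own number. With the replicate block, 2 members were higher and 3 lower at 48 than at 24 hours in DMSO, as without it. PLXNA1 at 48 against 24 hours in DMSO, with 0.20, passed with equal totals (0.25), quantile normalization (0.30) and edgeR (0.20). SEMA3A at 48 against 24 hours in AZD5153, with -0.53, passed with a minimum mean of 100 and without DMSO 24-hour replicate 1 (both -0.53), and without AZD5153 24-hour replicate 3 (-0.66), AZD5153 48-hour replicate 1 (-0.64) or AZD5153 48-hour replicate 3 (-0.62). The cause of these passes was not tested. Leaving out AZD5153 48-hour replicate 2, the lowest SEMA3A library of its group, made the SEMA3A fall smaller. For 5 members the small difference of the AZD5153 effect between times changed sign under some alternative: NRP2, PLXND1, SEMA3A, SEMA3C and SEMA3F. Per-length levels depend on the length used: NRP1 in DMSO at 24 hours was 402 per kilobase of joined exons and 787 with the longest transcript. Depth limits SEMA3D, with at most 13 reads in a library.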
